A study of Homo sapiens with 39 samples.

Results

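The genes described here are CHGA, CHGB, SCG2, SYP, ENO2, NCAM1, INSM1, SOX2 and EZH2, which are known as markers or drivers of neuroendocrine identity and lineage plasticity in prostate cancer. They were taken by name, 9 of the 63187 genes in the count table, by a rule that uses no measured value. Earlier results of these data were known when the genes were chosen. RNA was sequenced from C4-2B, a castration-resistant human prostate cancer cell line derived from LNCaP, grown in medium with fetal bovine serum. In a panel of 7 groups (21 libraries), cells received the vehicle DMSO, the androgen synthesis inhibitor abiraterone acetate (5 µM), the antiandrogen enzalutamide (20 µM), the PARP inhibitors olaparib (1 µM) or talazoparib (10 nM), abiraterone acetate plus olaparib, or enzalutamide plus talazoparib, all for 5 days. In a separate time course of 6 groups (18 libraries), cells received DMSO, 1 µM or 5 µM olaparib for 1 or 5 days. Each of the 13 groups held 3 libraries of this 1 cell line. The labels do not say that these came from separate cultures, so p-values measure the spread between these libraries, which may be technical.

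Total counts per library lay between 26932205 and 49833473, where 3 counts correspond to between 0.0602 and 0.111 counts per 1000000 counts of the library (CPM). The cells carried luminal prostate markers in every library, with KLK3 (prostate-specific antigen) at 9872 to 76237 counts and KRT8 at 6411 to 18701. Of 8 basal genes, KRT5 and TP63 had at most 2 counts in any library, while 5 passed the filter on low counts, among them DST with 367 to 1092 counts, ITGB4 with 52 to 564 and LAMB3 with 9 to 187. Of 9 fibroblast markers 3 passed it, with COL1A1 at 362 to 1032 counts and PDGFRB at 37 to 109, whereas COL1A2, DCN and LUM had at most 2. Of 11 leukocyte markers 5 passed it in the panel, with CD68 at 79 to 1054 counts and CD8A at 20 to 93, whereas CD3E and CD3D had at most 1.

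Prostate adenocarcinoma under hormonal therapy can lose its luminal program and take on features of neurons and endocrine cells. Such cells package peptide hormones in dense-core granules with the granins CHGA, CHGB and SCG2, carry the vesicle protein SYP and the adhesion molecule NCAM1 (CD56), and use the neuronal enolase ENO2. INSM1 is a zinc finger transcription factor of neuroendocrine differentiation, SOX2 is a pluripotency factor tied to lineage plasticity, and EZH2 is the catalytic subunit of Polycomb repressive complex 2 (PRC2), which methylates histone H3 at lysine 27 and is also known as a gene of dividing cells.

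The set split into genes at the edge of detection and genes with steady counts. CHGA, CHGB, SCG2, NCAM1, INSM1 and SOX2 never exceeded 11 counts in a library and did not pass the filter on low counts. This filter asks for about 10 counts in at least 3 libraries of any groups. SYP, ENO2 and EZH2 passed, with at least 24, 48 and 1186 counts in every library. Per kilobase of merged exons, the panel DMSO libraries held 8.85 ± 0.448 CPM of EZH2, 0.482 ± 0.00928 of ENO2, 0.339 ± 0.0269 of SYP and 0.0508 ± 0.0251 of SCG2 (SD, n = 3). NCAM1 was at 0.00682 and CHGA at 0.00276 CPM per kilobase on the same scale. EZH2 thus stood above ENO2 and SYP per unit of length, and all 3 stood above the granins.

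**Figure D1:**
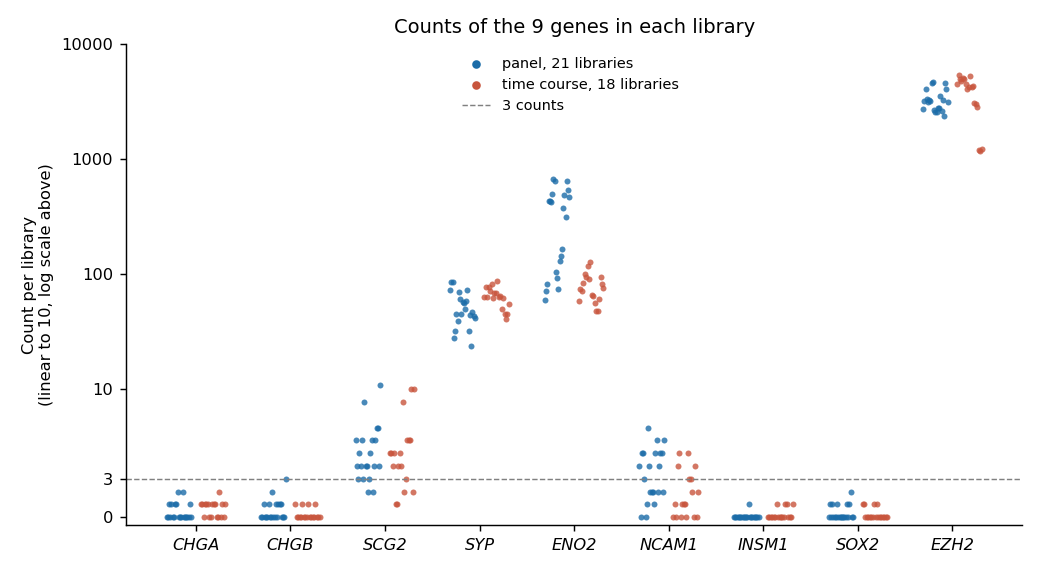
Count of each of the 9 genes (x axis) in each library (y axis, linear up to 10 and logarithmic above). Blue points are the 21 panel libraries, red points the 18 time course libraries, and the dashed line marks 3 counts; CHGA, CHGB, INSM1 and SOX2 lie at or under it in every library, while EZH2 has at least 1186 counts in all of them.

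The chromogranins were the weakest of the secretory markers. CHGA (ENSG00000100604, chromosome 14, 92923150 to 92935285, plus strand, GRCh38) had 21 counts in all 39 libraries together and at most 2 in any of them. This total equals 14.4 counts per 1000000000 counts, with an exact Poisson 95% interval of 8.91 to 22.0 that covers counting error only. Its counts were 0, 0 and 1 under DMSO, 0, 1 and 0 under abiraterone, 0, 1 and 1 under enzalutamide, 0, 0 and 0 under abiraterone plus olaparib and 0, 1 and 0 under enzalutamide plus talazoparib. Libraries of every other group held between 0 and 2 counts as well, so every treated group overlapped the DMSO group of its experiment.

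The CHGA promoter is shown because this gene is the standard marker of neuroendocrine cells and its messenger was at the edge of detection here. The stretch holds the 250 bases before the start of the RefSeq gene (chr14:92922900-92923149, plus strand, RefSeq sequence of GRCh38.p14), and the capitals mark a cyclic AMP response element (TGACGTCA on either strand) that begins 54 bases before the start.
CHGA: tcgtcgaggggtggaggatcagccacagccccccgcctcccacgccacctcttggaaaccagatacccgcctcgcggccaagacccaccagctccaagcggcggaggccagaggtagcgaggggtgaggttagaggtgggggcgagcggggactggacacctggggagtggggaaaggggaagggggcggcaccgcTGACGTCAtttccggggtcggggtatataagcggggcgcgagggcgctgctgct
The same 8 letters occurred in 1.85% of 35116 promoter windows of this kind, which run from 250 bases before to 50 bases after a start and were searched on both strands. The match describes the letters and no binding was measured. Of the 9 genes, CHGA, SYP, ENO2, SOX2 and EZH2 had an entry in the promoter table, and CHGB, SCG2, NCAM1 and INSM1 had none.

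CHGB, a granin of the same granules (ENSG00000089199, chromosome 20, 5911510 to 5925353, plus strand), had 15 counts over all libraries and 3 at most, in 1 library of enzalutamide plus talazoparib. Its counts in that group were 0, 0 and 3, against 0, 0 and 1 under DMSO. SCG2, or secretogranin II (ENSG00000171951, chromosome 2, 223596940 to 223602361, minus strand), was the one granin with a count in every library, at 1 to 11 counts with a median of 5. Panel counts of SCG2 were 6, 4 and 3 under DMSO, 5, 4 and 6 under abiraterone, 3, 9 and 4 under enzalutamide, 4, 2 and 3 under olaparib and 5, 6 and 2 under talazoparib. The combinations gave 4, 6 and 7 with abiraterone plus olaparib and 7, 4 and 11 with enzalutamide plus talazoparib. In the time course SCG2 had 5, 5 and 4 counts under DMSO and 4, 5 and 4 under 5 µM olaparib at day 1, and 9, 2 and 3 and 10, 2 and 10 at day 5. The treated libraries overlapped the DMSO libraries of their experiment and day, and at these counts a change in SCG2 was not detectable.

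NCAM1 (ENSG00000149294, chromosome 11, 112961275 to 113278436, plus strand) had 103 counts in all and 7 at most. Its counts were 4, 0 and 5 under panel DMSO, 1, 7 and 4 under enzalutamide and 5, 2 and 6 under enzalutamide plus talazoparib, so that libraries of 1 group ranged as widely as the groups. In the time course at day 1 NCAM1 had 0, 1 and 0 counts under DMSO, 4, 5 and 0 under 1 µM and 1, 1 and 1 under 5 µM olaparib, and scaled to library size all 3 libraries of the 5 µM group lay above DMSO. At day 5 it had 0, 5 and 3 under DMSO, 3, 2 and 0 under 1 µM and 4, 0 and 2 under 5 µM. INSM1 (ENSG00000173404, chromosome 20, 20368104 to 20370949, plus strand) had 5 counts in 39 libraries and never more than 1. It had 0 counts in every library of panel DMSO, abiraterone, enzalutamide and both combinations. Taken alone, a library with 0 counts allows an expected count of up to about 3, and the 3 libraries of a group together allow less. SOX2 (ENSG00000181449, chromosome 3, 181711925 to 181714436, plus strand) had 11 counts in all and 2 at most, 0, 1 and 0 under panel DMSO, 0, 1 and 0 under enzalutamide and 2, 0 and 0 under enzalutamide plus talazoparib. SOX2 lies wholly within SOX2-OT, a noncoding gene on the same strand with 0 to 14 counts, and counts assigned between them are uncertain.

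When these 6 genes were tested without the filter on low counts, 0 of 126 tests over 21 comparisons passed the threshold of 0.05 on the adjusted p (edgeR quasi-likelihood). The lowest adjusted p was 0.208, and 3 tests, all of NCAM1 in the time course, had an unadjusted p under 0.05, the lowest of them 0.0290 for 1 µM olaparib at day 1. No fold change is given for these genes at so few counts.

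Other neuroendocrine regulators and cargo genes ranged from sparse to abundant. NEUROD1, MYCN, FOXA2 and POU3F4, transcription factors of neuroendocrine or neural lineages, had at most 1 count in any library, and the neural splicing factor SRRM4 had 0 to 12. The gene lists used here were drawn up from general knowledge, with earlier results of these data known. Of 29 neuroendocrine transcription and splicing factors, 15 had at most 11 counts in every library. So did 16 of 40 granule, vesicle and neuronal genes, while 13 and 23 passed the panel filter. Among the latter were SOX4 with 3210 to 20215 counts and SYT4 with 184 to 4556. REST, the repressor of neuronal genes, had 2608 to 5078 counts, and ONECUT2, a homeodomain transcription factor, had 654 to 1573. DLL3, a Notch ligand expressed on neuroendocrine tumors, had 102 to 360 counts.

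Of the 3 genes that could be tested, adjusted p-values come from edgeR's quasi-likelihood test with Benjamini-Hochberg adjustment over all genes tested, 18625 in the panel and 18502 in the time course, and a gene was called at an adjusted p under 0.05. Against DMSO, 2 of the 3 were called with abiraterone, where 52.9% of all genes were called, and 3 with enzalutamide, where 53.3% were. With olaparib 2 were called (35.6% of all genes) and with talazoparib 3 (33.8%). With abiraterone plus olaparib 3 were called (62.2%) and with enzalutamide plus talazoparib 2 (62.4%). In the time course, 1 of the 3 was called with 1 µM olaparib at day 1 (15.8%) and 1 at day 5 (46.3%), and with 5 µM 2 were called at day 1 (45%) and 3 at day 5 (68.2%). Counts of 3 genes against shares of this size are no result about the set, and the genes are therefore described one by one.

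**Figure D2:**
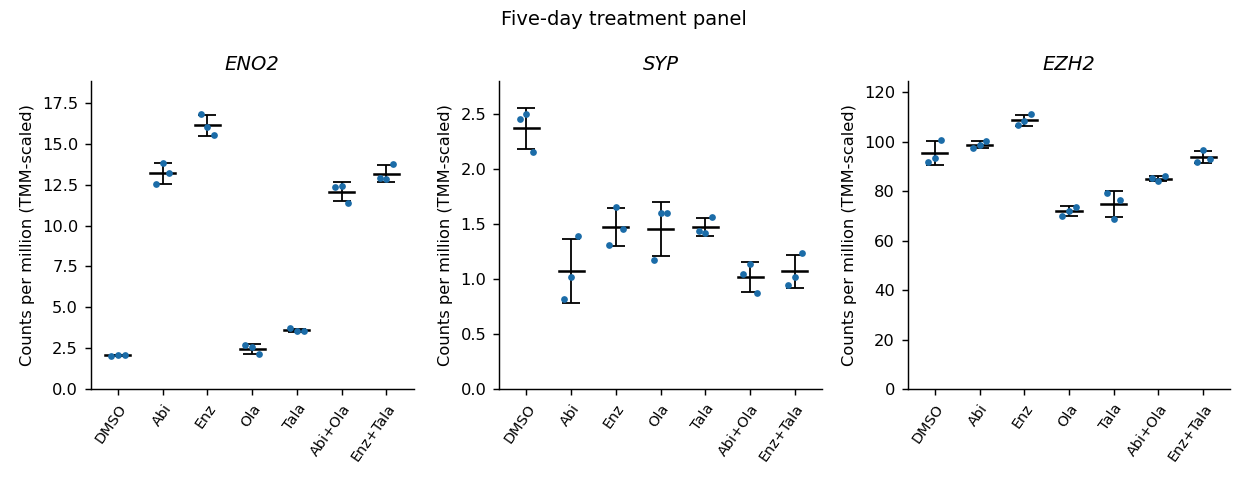
TMM-scaled CPM (y axis, from 0) of ENO2, SYP and EZH2 in the 7 panel groups (x axis). Points are libraries and bars the mean ± SD of 3; ENO2 stands between 11.4 and 16.8 CPM in the 12 libraries with abiraterone or enzalutamide and under 3.8 in the other 9, SYP is highest under DMSO, and EZH2 is lowest under the PARP inhibitors.

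ENO2, the glycolytic enolase isoform of neurons (ENSG00000111674, chromosome 12, 6913745 to 6923698, plus strand), was the one of the 3 testable genes that rose with both abiraterone and enzalutamide. It stood at 2.02, 2.09 and 2.08 CPM in the DMSO libraries, at 12.5, 13.8 and 13.2 under abiraterone and at 16.8, 16.0 and 15.5 under enzalutamide. The counts behind these values were 60, 72 and 83 under DMSO, 431, 435 and 428 under abiraterone and 502, 678 and 650 under enzalutamide. Every library of both drugs lay above every DMSO library. The rise was 6.32-fold with abiraterone (log2 fold change 2.66 ± 0.10, SE, adjusted p = 8.50e-23) and 7.72-fold with enzalutamide (2.95 ± 0.093, adjusted p = 2.23e-24). Among all genes these changes ranked 247 and 165 by rise. In bulk RNA a change in the share of cells that express a gene and a change in RNA per cell cannot be told apart, which holds for every level given here.

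The PARP inhibitors moved ENO2 less. Olaparib libraries held 2.71, 2.59 and 2.14 CPM, just above the DMSO libraries, and the difference missed the threshold (log2 fold change 0.26 ± 0.11, adjusted p = 0.104). Talazoparib libraries held 3.72, 3.53 and 3.53 CPM and ENO2 rose 1.73-fold (0.79 ± 0.11, adjusted p = 3.25e-07). The direct difference between talazoparib at 10 nM and olaparib at 1 µM, doses that differ, was 0.52 ± 0.10 (adjusted p = 0.00119), where 1 of the 3 genes and 8.36% of all genes were called.

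Under the combinations ENO2 did not exceed the level of abiraterone or enzalutamide alone. Abiraterone plus olaparib gave 12.4, 12.4 and 11.4 CPM, and its difference from abiraterone alone missed the threshold (log2 fold change -0.12 ± 0.077, adjusted p = 0.241, with 1 of the 3 genes and 29.2% of all genes called). Enzalutamide plus talazoparib gave 12.9, 12.8 and 13.8 CPM, below all 3 enzalutamide libraries, and ENO2 was lower than with enzalutamide alone (-0.30 ± 0.074, adjusted p = 0.00152, with 2 of the 3 genes and 34.4% of all genes called). Against DMSO the combinations raised ENO2 5.80-fold and 6.27-fold. From low to high, the group means ran from DMSO at 2.06 ± 0.0397 CPM through olaparib at 2.48 ± 0.303, talazoparib at 3.60 ± 0.110, abiraterone plus olaparib at 12.1 ± 0.588, enzalutamide plus talazoparib at 13.2 ± 0.527 and abiraterone at 13.2 ± 0.649 to enzalutamide at 16.1 ± 0.645 (SD, n = 3). In this order only enzalutamide plus talazoparib and abiraterone had overlapping ranges.

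An interaction term tested whether a combination departed from the sum of its drugs on the log2 scale. For ENO2 it was -1.09 ± 0.13 with enzalutamide and talazoparib (adjusted p = 3.29e-07), so the combined change was smaller than the sum of 2.95 and 0.79. With abiraterone and olaparib it was -0.39 ± 0.14 and missed the threshold (adjusted p = 0.0586, and 0.0299 without olaparib replicate 3). Interactions were called for 12.6% of all genes with enzalutamide and talazoparib and for 12.8% with abiraterone and olaparib, with 1 of the 3 genes in each. Enzalutamide also stood above abiraterone for ENO2 (0.29 ± 0.075, adjusted p = 0.00473, with 2 of the 3 genes and 19.8% of all genes called), at doses that differ.

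The annotated span of ENO2 overlaps that of LRRC23, its neighbour on the same strand, by 497 bases. Reads from exons within this overlap, if any, could be assigned to either gene. Against DMSO, LRRC23 had a log2 fold change of -0.33 ± 0.11 under abiraterone (adjusted p = 0.00899) and -0.053 ± 0.10 under enzalutamide (adjusted p = 0.698). With 5 µM olaparib at day 5, where ENO2 rose, LRRC23 fell (-0.54 ± 0.085, adjusted p = 7.52e-07). With enzalutamide plus talazoparib against enzalutamide alone, where ENO2 fell, LRRC23 fell as well (-0.41 ± 0.10, adjusted p = 0.00188). The part of LRRC23 in the ENO2 values was not tested. A short stretch of the ENO2 promoter is shown for the capitals, an AP-1 motif (TGACTCA or TGAGTCA, which are the 2 strands of 1 site) that begins 94 bases before the RefSeq start and is found in 4.95% of the 35116 windows. The stretch (chr12:6914476-6914502, plus strand, RefSeq sequence of GRCh38.p14) lies within the 5′ untranslated exon of an alternative ENO2 transcript in the annotation.
ENO2: cggcagctccTGACTCAtcgggggctc
The same window held the core of a hypoxia response element (ACGTG) 118 bases before the start, but 48.4% of all windows hold ACGTG or GCGTG on either strand. These matches are letters in a window, and nothing about a factor follows from them.

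**Figure D3:**
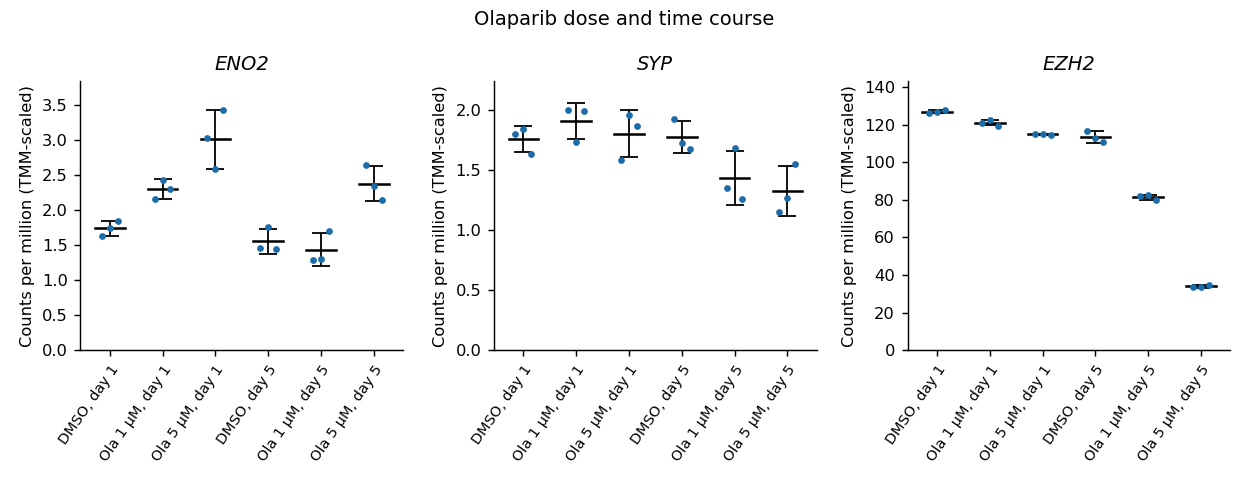
TMM-scaled CPM (y axis, from 0) of ENO2, SYP and EZH2 in the 6 time course groups (x axis). Points are libraries and bars the mean ± SD of 3; EZH2 falls from 113 CPM under DMSO to 33.9 CPM under 5 µM olaparib at day 5, while ENO2 is highest under 5 µM olaparib at day 1.

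In the time course, where neither abiraterone nor enzalutamide was given, ENO2 moved with the higher olaparib dose. At day 1 it stood at 1.63, 1.75 and 1.84 CPM under DMSO, 2.15, 2.43 and 2.30 under 1 µM and 3.02, 2.58 and 3.42 under 5 µM olaparib. Both treated groups lay above DMSO in every library, and the rise passed the threshold at 5 µM (1.72-fold, log2 fold change 0.78 ± 0.15, adjusted p = 4.13e-05) but not at 1 µM (0.40 ± 0.15, adjusted p = 0.0726). At day 5 the values were 1.46, 1.75 and 1.44 CPM under DMSO, 1.29, 1.30 and 1.71 under 1 µM and 2.64, 2.34 and 2.14 under 5 µM. The 5 µM libraries again lay above DMSO (0.61 ± 0.15, adjusted p = 0.000700) while 1 µM overlapped it (-0.12 ± 0.16, adjusted p = 0.604).

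The dose step from 1 to 5 µM raised ENO2 by 0.73 ± 0.16 at day 5 (log2, adjusted p = 0.000169, with 2 of the 3 genes and 53.6% of all genes called). At day 1 the step was 0.39 ± 0.15 (adjusted p = 0.0421, 2 of the 3 genes and 28.8% of all genes), a call that was lost without 1 µM replicate 1, 2 or 3, without 5 µM replicate 1 or 3, with no filter and with DESeq2, where adjusted p-values reached 0.216. Neither olaparib effect differed between the days past the threshold, with an interaction of -0.51 ± 0.22 at 1 µM (adjusted p = 0.0823, and 0.0342 without 1 µM replicate 3 at day 5) and -0.17 ± 0.22 at 5 µM (adjusted p = 0.527). The olaparib rise in the time course stayed under 2-fold, against 6.32-fold and 7.72-fold with abiraterone and enzalutamide in the panel, which is a separate experiment with its own scaling.

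SYP, or synaptophysin, a membrane protein of synaptic and neuroendocrine vesicles (ENSG00000102003, chromosome X, 49187815 to 49200218, minus strand), fell with every panel treatment. DMSO libraries held 73, 86 and 86 counts, or 2.45, 2.50 and 2.15 CPM. With abiraterone SYP was at 0.815, 1.02 and 1.39 CPM and with enzalutamide at 1.31, 1.66 and 1.46, all below the lowest DMSO library. It fell by 1.15 ± 0.21 on the log2 scale with abiraterone (adjusted p = 1.37e-05) and by 0.69 ± 0.20 with enzalutamide (adjusted p = 0.00364). ENO2 and SYP, both taken as neuroendocrine markers, thus had opposite signs under the same drugs. Enzalutamide against abiraterone gave 0.46 ± 0.21 for SYP (adjusted p = 0.127, and 0.0374 without abiraterone replicate 3).

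The PARP inhibitors gave similar SYP values, 1.17, 1.60 and 1.60 CPM with olaparib and 1.43, 1.42 and 1.56 with talazoparib. Both falls passed the threshold, -0.70 ± 0.20 for olaparib (adjusted p = 0.00538) and -0.69 ± 0.20 for talazoparib (adjusted p = 0.00621), and their difference was 0.012 with a 95% interval of -0.39 to 0.41 (adjusted p = 0.984). Abiraterone plus olaparib brought SYP to 1.04, 1.13 and 0.871 CPM (-1.22 ± 0.21, adjusted p = 4.58e-06) and enzalutamide plus talazoparib to 0.950, 1.02 and 1.24 CPM (-1.17 ± 0.20, adjusted p = 5.62e-06). No library of the 6 treatments reached the lowest DMSO library, and between neighbouring treated groups the ranges overlapped. Neither combination differed past the threshold from abiraterone or enzalutamide alone, with -0.067 ± 0.22 for abiraterone plus olaparib (adjusted p = 0.863) and -0.48 ± 0.21 for enzalutamide plus talazoparib (adjusted p = 0.0691). Interactions of 0.64 ± 0.30 and 0.21 ± 0.29 missed it as well (adjusted p = 0.172 and 0.723).

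In the time course SYP passed the threshold in 1 of 4 comparisons with DMSO. At day 1 it stood at 1.80, 1.84 and 1.63 CPM under DMSO, 2.00, 1.73 and 1.99 under 1 µM and 1.59, 1.96 and 1.86 under 5 µM olaparib, with overlapping ranges. At day 5 it stood at 1.92, 1.72 and 1.67 CPM under DMSO, 1.34, 1.68 and 1.26 under 1 µM and 1.15, 1.27 and 1.55 under 5 µM, where all 5 µM libraries lay below DMSO and 1 of the 3 libraries at 1 µM reached its range. The 5 µM change of -0.43 ± 0.16 passed the threshold (adjusted p = 0.0209), but not without DMSO replicate 1 (adjusted p = 0.0822), without 5 µM replicate 1 (0.117) or replicate 2 (0.0684), with no filter (0.0811) or with DESeq2 (0.0716). At 1 µM the change was -0.32 ± 0.16 (adjusted p = 0.112, and 0.0453 without 1 µM replicate 2). The difference between days in the olaparib effect on SYP was -0.43 ± 0.23 at 1 µM (adjusted p = 0.161) and -0.46 ± 0.23 at 5 µM (adjusted p = 0.0921, but 0.0294 with total counts and 0.0476 without 5 µM replicate 3 at day 5). SYP-AS1, which lies on the opposite strand, had 0 to 3 counts.

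**Figure D4:**
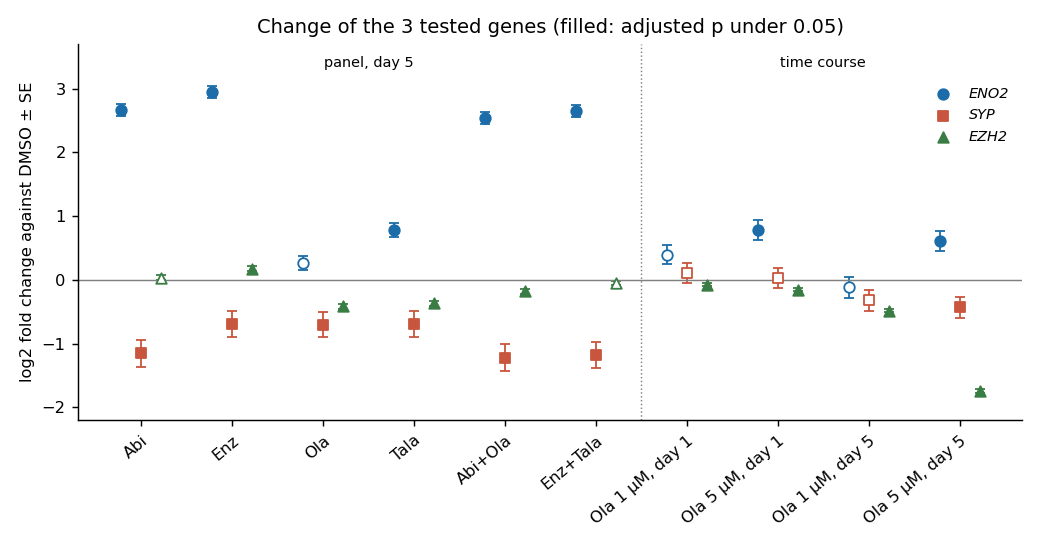
Log2 fold change against DMSO of the same experiment and day (y axis, ± SE of the fit) for ENO2, SYP and EZH2 in the 10 treated groups (x axis), with filled symbols for adjusted p under 0.05. ENO2 lies between 2.54 and 2.95 in the 4 groups with abiraterone or enzalutamide, SYP lies below 0 in all 6 panel groups, and EZH2 is lowest, at -1.75, under 5 µM olaparib at day 5.

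EZH2 (ENSG00000106462, chromosome 7, 148807257 to 148884321, minus strand), the enzyme of PRC2, fell with the PARP inhibitors in the panel and did not fall with abiraterone or enzalutamide alone. DMSO libraries held 2730, 3214 and 4026 counts, or 91.8, 93.3 and 101 CPM. Olaparib brought EZH2 to 69.9, 71.9 and 73.8 CPM and talazoparib to 79.2, 68.8 and 76.3, with no overlap with DMSO. It fell by 0.41 ± 0.039 on the log2 scale with olaparib (adjusted p = 1.68e-10) and by 0.36 ± 0.039 with talazoparib (adjusted p = 3.01e-09). The difference between these drugs was 0.049 with a 95% interval of -0.028 to 0.13 (adjusted p = 0.525).

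Abiraterone left EZH2 at 97.5, 98.8 and 100.1 CPM, a change of 0.036 ± 0.039 (adjusted p = 0.464) that became 0.10 and passed the threshold with total counts in place of TMM scaling (adjusted p = 0.0280). Enzalutamide gave 107, 108 and 111 CPM, above every DMSO library, and a rise of 0.17 ± 0.038 (adjusted p = 0.000220). Enzalutamide also stood above abiraterone (0.14 ± 0.038, adjusted p = 0.00835, and 0.0581 without enzalutamide replicate 3). Sizes of this order are 1.13-fold or less.

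The combinations lay between their parts. Abiraterone plus olaparib gave 85.2, 83.9 and 86.1 CPM, below DMSO (-0.18 ± 0.039, adjusted p = 0.000169) and below abiraterone alone (-0.21 ± 0.039, adjusted p = 5.85e-05). Enzalutamide plus talazoparib gave 91.7, 96.5 and 93.1 CPM, which overlapped DMSO (-0.047 ± 0.038, adjusted p = 0.292) and lay below enzalutamide alone (-0.22 ± 0.038, adjusted p = 1.79e-05). EZH2 was thus lower with a PARP inhibitor added than with abiraterone or enzalutamide alone in both combinations. The interaction was 0.20 ± 0.056 with abiraterone and olaparib (adjusted p = 0.0146, and 0.0668 without DMSO replicate 3). With enzalutamide and talazoparib it was 0.14 ± 0.054 (adjusted p = 0.0848), which passed the threshold with total counts (0.0436), a filter of at least 1 CPM in 3 libraries (0.0347), DESeq2 (0.0443), or without DMSO replicate 1 (0.0431), talazoparib replicate 1 (0.00657) or combination replicate 1 (0.0333).

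The time course showed the widest range of EZH2. At day 1 EZH2 stood at 126, 127 and 128 CPM under DMSO, 121, 122 and 119 under 1 µM and 115, 115 and 114 under 5 µM olaparib. At day 5 it stood at 117, 113 and 111 CPM under DMSO, 81.8, 82.5 and 79.9 under 1 µM and 33.6, 33.4 and 34.8 under 5 µM. The groups of each day did not overlap and were ordered by dose. The change from DMSO was -0.48 ± 0.026 at 1 µM (adjusted p = 9.06e-18) and -1.75 ± 0.029 at 5 µM (adjusted p = 7.21e-35) at day 5, the latter 3.35-fold lower.

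At day 1 the changes were small, -0.15 ± 0.026 at 5 µM (adjusted p = 5.46e-06) and -0.073 ± 0.025 at 1 µM (adjusted p = 0.0445). The 1 µM call was lost without any 1 of the 6 libraries compared (adjusted p 0.0615 to 0.163), with total counts (0.223), with no filter (0.177) and with only the groups compared in the fit (0.0766). The olaparib effect differed between days by -0.41 ± 0.037 at 1 µM (adjusted p = 2.29e-11) and by -1.59 ± 0.039 at 5 µM (adjusted p = 5.56e-29). Such differences between days were called for 29.8% of all genes at 1 µM and 54.9% at 5 µM, and EZH2 was the 1 of the 3 genes called in each. The dose step from 1 to 5 µM was -1.26 ± 0.030 at day 5 (adjusted p = 1.34e-29) and -0.079 ± 0.026 at day 1 (adjusted p = 0.0168, and 0.0726 without 1 µM replicate 2, 0.0900 with total counts and 0.0774 with no filter).

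EZH2 also declined between the vehicle groups, by 0.17 ± 0.026 from day 1 to day 5 (adjusted p = 4.93e-06, where 1 of the 3 genes and 24.5% of all genes were called). ENO2 and SYP did not pass the threshold there, at -0.17 ± 0.16 and 0.010 ± 0.16 (adjusted p = 0.474 and 0.978). Olaparib at 1 µM for 5 days was given in both experiments, and the difference of its effects was 0.050 ± 0.048 for EZH2, 0.36 ± 0.24 for ENO2 and -0.41 ± 0.25 for SYP. None of the 3 passed the threshold there (adjusted p = 0.697, 0.545 and 0.501 by edgeR), none had an unadjusted p under 0.05, and 1.97% of 17833 genes were called.

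**Figure D5:**
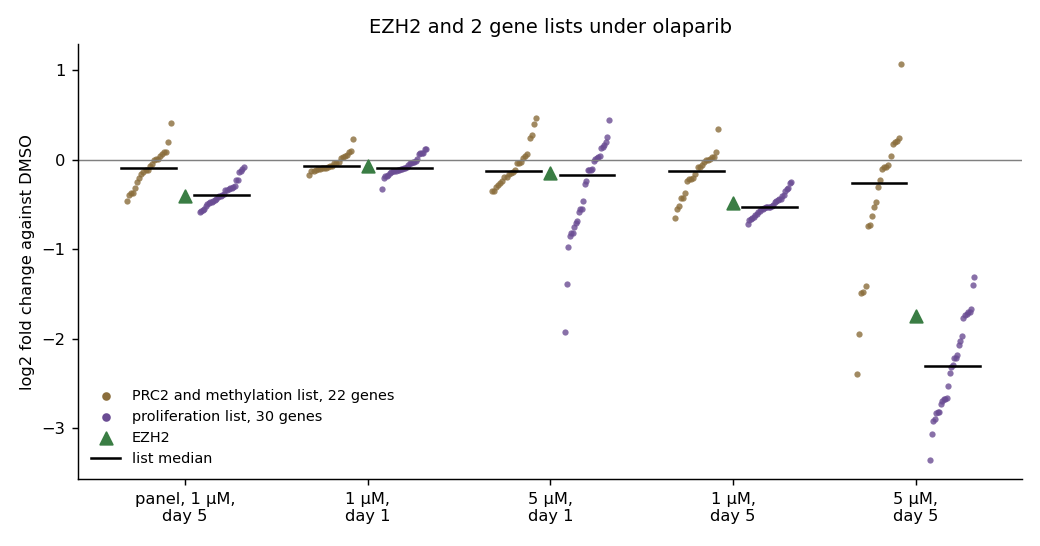
Log2 fold change against DMSO (y axis) in 5 olaparib groups (x axis) for EZH2 (triangles), 22 PRC2 and methylation genes and 30 proliferation genes, with black lines at the list medians. EZH2 lies at -0.41 and -0.48 with 1 µM at day 5 in the panel and the time course and at -1.75 with 5 µM at day 5, inside the spread of the proliferation genes.

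The genes of dividing cells fell with EZH2 under the PARP inhibitors alone at day 5, and the combinations and day 1 gave a less even picture. Of 30 proliferation genes, 28 fell and 0 rose with panel olaparib (median log2 fold change -0.40, against 0.015 over all genes, of which 16% fell). All 30 fell with talazoparib (median -0.42, 15.4% of all genes fell), with 1 µM at day 5 (-0.53, 22.9%) and with 5 µM at day 5 (-2.31, 33.9%). PLK1, a mitotic kinase, went from 104, 107 and 102 CPM under DMSO to 10.4, 9.99 and 10.3 under 5 µM at day 5 and fell 10.2-fold. CCNA2, a cyclin of S and G2 phases, fell 8.38-fold and BIRC5, the mitotic protein survivin, 7.57-fold.

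At 5 µM and day 5, 23 of the 30 proliferation genes had a lower log2 fold change than EZH2. With 1 µM at day 5, 18 of them had in the time course and 13 in the panel. The summed level of the list was 4491 to 4548 CPM under DMSO and 1007 to 1044 CPM under 5 µM at day 5. With abiraterone plus olaparib the list summed to 2763 to 2803 CPM, within the 2763 to 2902 CPM of olaparib alone, while EZH2 stood at 85.1 ± 1.11 CPM against 71.9 ± 1.95 (SD, n = 3). With enzalutamide plus talazoparib the list summed to 3111 to 3164 CPM, below the 3395 to 3874 CPM of DMSO, while the EZH2 change missed the threshold (adjusted p = 0.292). With 5 µM olaparib at day 1 the list spanned log2 fold changes from -1.93 for PLK1 to 0.44 for PCNA, a replication clamp, beside -0.15 for EZH2. With abiraterone 9 of the 30 fell and 4 rose (27.1% and 25.8% of all genes), and with enzalutamide 3 fell and 9 rose (26.3% and 27%). The part of proliferation in the EZH2 values was not tested.

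The core partners of EZH2 in PRC2 passed the threshold in some of the comparisons in which EZH2 fell. With 5 µM olaparib at day 5 SUZ12 had a log2 fold change of -0.47 ± 0.029 and EED of -0.53 ± 0.047, the scaffold subunits that EZH2 needs for activity, and both fell (adjusted p = 9.40e-17 and 1.95e-12). With 5 µM at day 1 neither passed the threshold, at -0.039 ± 0.029 and -0.025 ± 0.043 (adjusted p = 0.279 and 0.683), and with panel olaparib SUZ12 had -0.11 ± 0.033 and EED -0.16 ± 0.070 (adjusted p = 0.00665 and 0.0740). EZH1, the paralogue of EZH2 found in resting cells, rose by 0.24 ± 0.048 with 5 µM at day 5 (adjusted p = 3.21e-05), and by 0.39 ± 0.049 with abiraterone (adjusted p = 3.03e-08) and 0.50 ± 0.048 with enzalutamide (adjusted p = 6.57e-11). KDM6B, a demethylase of the same histone residue, rose by 1.07 ± 0.029 with 5 µM at day 5 (adjusted p = 7.98e-28).

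Of 22 genes of PRC2 and of DNA and histone methylation, 15 fell and 5 rose with 5 µM at day 5 (33.9% and 34.4% of all genes, list median -0.27), and 9 fell and 2 rose with panel olaparib (16% and 19.6%, list median -0.095). The steepest falls were in UHRF1, which guides maintenance DNA methylation (5.27-fold lower), PHF19, a PRC2 accessory factor (3.86-fold), and NSD2, a histone H3 lysine 36 methyltransferase (2.82-fold). PHF19 went from 11.9, 13.3 and 12.1 CPM to 3.17, 3.15 and 3.36. At day 1 the same dose had raised PHF19, by 0.46 ± 0.066 (adjusted p = 3.05e-07).

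The EZH2 promoter is shown because EZH2 is also known as a gene of dividing cells, many of which carry CCAAT boxes. The table holds another EZH2 window, further into the gene, in which neither a CCAAT box nor an E2F motif was found. The stretch holds the 220 bases of the window at the annotated start that lie before the annotated gene (chr7:148884322-148884541, minus strand, RefSeq sequence of GRCh38.p14), and the capitals mark CCAAT boxes (CCAAT, read as ATTGG on the other strand) that begin 94, 66 and 47 bases before the RefSeq start.
EZH2: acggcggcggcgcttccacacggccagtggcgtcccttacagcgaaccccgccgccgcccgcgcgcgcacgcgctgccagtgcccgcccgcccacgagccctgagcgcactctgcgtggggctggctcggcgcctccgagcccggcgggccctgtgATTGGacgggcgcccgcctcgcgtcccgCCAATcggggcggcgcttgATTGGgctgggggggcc
Another begins 13 bases before the start, outside this stretch. At least 1 CCAAT box is found in 34.6% of the 35116 windows and at least 4 in 0.991%. Among the 24 proliferation genes with a window, 19 had at least 1 (79.2%). An E2F motif (TTTGGCGC, with TTTCGCGC and TTTCCCGC also searched on both strands) begins at the start site of EZH2, and 2.74% of windows hold 1 of these. The matches describe letters, and no binding was measured.

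Vesicle and neuronal genes outside the set showed that neuronal transcripts were not uniformly low. Of 40 such genes, 23 passed the filter in the panel, of which 12 rose and 7 fell with abiraterone (25.8% and 27.1% of all genes) and 11 rose and 7 fell with enzalutamide (27% and 26.3%). With olaparib 10 rose and 1 fell (19.6% and 16%), and with 5 µM olaparib at day 5 14 of 20 rose and 4 fell (34.4% and 33.9%). The list's median log2 fold change was 0.35, 0.37, 0.28 and 0.55 in these comparisons. The 17 genes under the panel filter are not covered by these counts.

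SYT4, a synaptotagmin of dense-core vesicles, had the largest change in this list among the genes that averaged 100 counts or more where they were higher. It stood at 6.12, 6.04 and 6.78 CPM under DMSO and 69.8, 76.8 and 72.8 under 5 µM olaparib at day 5, and rose 11.5-fold (log2 fold change 3.53 ± 0.059, adjusted p = 9.33e-35). In the panel it went from 14.9, 13.5 and 13.8 CPM under DMSO to 71.1, 71.7 and 75.0 with abiraterone and 118, 117 and 107 with abiraterone plus olaparib. TUBB3, the neuronal beta-tubulin, rose 4.39-fold with that combination, from 10.7 ± 1.48 to 47.1 ± 3.54 CPM. DDC, which makes dopamine and serotonin, rose with abiraterone (1.78 ± 0.041) and enzalutamide (1.71 ± 0.041) but fell with olaparib (-1.02 ± 0.047) and 3.49-fold with 5 µM at day 5.

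Transcription factors of neuroendocrine and neural lineages were called in both directions. Of 29 listed, 13 passed the panel filter, and 3 rose and 3 fell with abiraterone (25.8% and 27.1% of all genes), with the same counts under enzalutamide (27% and 26.3%). With 5 µM olaparib at day 5, 3 of the 11 that passed the time course filter rose and 7 fell (34.4% and 33.9% of all genes, list median -0.88 against -0.0083). SOX4, a progenitor factor, rose 3.90-fold with abiraterone plus olaparib, from 101 ± 7.85 to 398 ± 12.3 CPM. MYT1, a neural zinc finger repressor, had 44, 40 and 21 counts under DMSO and 96, 107 and 114 under 5 µM olaparib at day 5 and rose 3.42-fold. HES6, a Notch pathway factor, fell 3.22-fold with abiraterone plus olaparib.

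REST and its corepressors were measured in every library. REST itself had a log2 fold change of 0.20 ± 0.032 with abiraterone, 0.16 ± 0.032 with enzalutamide and 0.32 ± 0.032 with 5 µM olaparib at day 5, all past the threshold and upward. RCOR2, a corepressor related to CoREST with few counts, rose 3.95-fold with enzalutamide plus talazoparib, from 32, 30 and 31 counts to 193, 153 and 113. RCOR3 rose 1.37-fold there, and HDAC2 fell by 0.40 ± 0.027 (log2) with 5 µM olaparib at day 1.

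Genes of plasticity and stemness other than SOX2 were mostly measurable. Of 37 listed, 29 passed the filter, and 14 rose and 4 fell with abiraterone (25.8% and 27.1% of all genes), against 17 and 8 with 5 µM olaparib at day 5 (34.4% and 33.9%). SOX9, a progenitor factor of the same family as SOX2, went from 4.15, 3.91 and 3.26 CPM under DMSO to 28.5, 32.4 and 29.5 at that dose and day and rose 7.93-fold. NOTCH3, a Notch receptor, rose 4.04-fold with enzalutamide plus talazoparib. AURKA, a mitotic kinase known for stabilizing MYCN protein, fell 6.04-fold with 5 µM olaparib at day 5.

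Luminal identity was read from 14 prostate genes. With enzalutamide 7 rose and 7 fell (27% and 26.3% of all genes). Those that rose included ACP3, prostatic acid phosphatase (2.01-fold higher), and FOLH1, prostate-specific membrane antigen (1.30-fold), and the steepest falls were in SLC45A3 (18.7-fold lower), KLK2 (7.20-fold) and TMPRSS2 (6.96-fold). The luminal keratin KRT8 had a log2 fold change of -0.073 ± 0.029 under abiraterone (adjusted p = 0.0346) and -0.24 ± 0.029 under enzalutamide (adjusted p = 7.26e-09). The summed level of the 14 genes was 6183 to 6434 CPM under panel DMSO and 4362 to 4446 under enzalutamide, where ENO2 was highest. It was 4736 to 4863 under abiraterone, 5018 to 5166 under abiraterone plus olaparib and 4768 to 4801 under enzalutamide plus talazoparib. Olaparib (6833 to 7017) and talazoparib (6873.0 to 6944.5) lay above DMSO, and ENO2 rose with talazoparib. ENO2 also rose with 5 µM olaparib, where the sum was 4557 to 4618 CPM against 4946 to 5067 under DMSO at day 1. At day 5 the sum was 7021 to 7167 against 5426 to 5500. Any link to ENO2 was not tested. Of 8 basal genes, 5 passed the filter, among them LAMB3 (9.53-fold higher with 5 µM olaparib at day 5), ITGB4 (6.15-fold higher with enzalutamide) and DST (1.81-fold lower with 5 µM at day 5). The 8 genes summed to 25.9 to 26.3 CPM under panel DMSO, 32.1 to 38.0 under abiraterone and 37.2 to 39.3 under enzalutamide. They summed to 34.2 to 35.4 under abiraterone plus olaparib and 33.6 to 39.9 under enzalutamide plus talazoparib. With olaparib (20.7 to 21.4) and talazoparib (22.1 to 23.3) the sum was below DMSO. At day 5 it was 21.1 to 22.2 under time course DMSO and 19.9 to 21.6 under 5 µM olaparib.

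Markers of other cell types moved in places too. The 9 fibroblast markers summed to 12.1 to 15.9 CPM under panel DMSO, 20.1 to 22.0 under abiraterone or enzalutamide and 23.3 to 24.4 under the combinations. Most of this sum was COL1A1, up 1.82-fold under abiraterone plus olaparib, while 5 of the 9 had at most 3 counts in every library. The 7 endothelial markers summed to 14.1 to 16.5 CPM under panel DMSO, 21.6 to 22.0 under abiraterone and 12.2 to 13.2 under enzalutamide, below every DMSO library. Most of this sum was VWF, with 266 to 789 counts per library, up 1.37-fold under abiraterone plus olaparib. At day 1, where ENO2 rose with 5 µM olaparib, the fibroblast list summed to 13.8 to 14.6 CPM under DMSO and 17.4 to 19.5 under 5 µM. The endothelial list summed to 10.4 to 11.6 and 13.6 to 15.8 CPM there, and neither list overlapped between the groups. The 11 leukocyte markers summed to 7.79 to 8.79 CPM under time course DMSO at day 5, 18.4 to 20.4 under 1 µM and 30.3 to 33.0 under 5 µM olaparib, most of it CD68, a lysosomal protein, which rose 4.80-fold. In the panel the same list summed to 6.81 to 9.81 CPM under DMSO, 17.7 to 18.7 under olaparib and 16.4 to 17.6 under talazoparib, where EZH2 and SYP fell, and to 5.07 to 5.48 under abiraterone and 4.95 to 5.73 under enzalutamide. Their part in the values of ENO2, SYP and EZH2 was not tested.

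Patterns most like each of the 3 genes were ranked by Pearson's r of the mean log2 CPM over the 13 groups, each experiment centred on its own mean, among 13606 genes. The closest to EZH2 were RMI1 (r = 0.997), CDC7 (r = 0.997) and RFC5 (r = 0.996), and to SYP they were SETD3 (r = 0.943), OSBPL6 (r = 0.942) and SELENOK (r = 0.940). For ENO2 they were OCLNP1 (r = 0.986), COL16A1 (r = 0.984) and HMGB1P1 (r = 0.984), of which OCLNP1 and HMGB1P1 are pseudogenes whose counts are uncertain. Groups within an experiment share the DMSO libraries and the scaling, and over the 7 panel groups alone 1 of these 9 genes, RMI1 for EZH2, stayed among the 3 closest.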

How the data were processed

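RNA from 39 C4-2B libraries was sequenced as stranded mRNA libraries. Per the labels and the study's methods, the authors trimmed reads with Trim Galore, aligned them with STAR to GRCh38 and quantified genes with Salmon using GENCODE, and the deposited values are estimated counts, stored as whole numbers. Of 63187 Ensembl identifiers, 62666 were paired with a symbol. The panel and the time course were fitted apart by edgeR 4.0.16 under R 4.3.3 (filterByExpr with a minimum count of 10, TMM scaling, robust quasi-likelihood test), with all groups of an experiment in 1 fit and no covariates. Differences are log2 fold changes, and p-values were adjusted by Benjamini-Hochberg over all genes tested. Levels are CPM on TMM-scaled library sizes. Per length levels divide by merged exon length. Totals of 26932205 to 49833473 counts set the precision. The Poisson interval covers counting error only, and intervals of differences come from the SE of the fit, which includes the spread between libraries. The method was tested on simulated data. DESeq2 1.42.0, other scalings, filters and thresholds, only the groups compared, the replicate number as a block, and each library left out were tried as alternatives. The difference between the olaparib arms of the 2 experiments was added after seeing the data.

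The 9 genes and the companion lists were chosen with earlier results of these data known. From each companion list, up to 3 genes were named, those with the largest absolute log2 fold change against DMSO among called genes that averaged 100 counts or more where they were higher. Core PRC2 members, EZH1, KDM6B, REST, KRT8, ACP3, FOLH1, PCNA, the marker genes of other cell types and the sparse regulators were named for their role outside this rule, after their values were seen. Genes most like a member needed a mean of at least 50 counts. Promoter sequences came from a RefSeq table of GRCh38.p14 and gene positions from an earlier GENCODE release of GRCh38 than that used for counting. Samples with the same replicate number did not deviate together (median correlation of -0.00734 in the panel and -0.00285 in the time course), so the numbers were not taken as pairs. Some items are not reported here.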

Additional observations from a re-analysis of the deposited data

Results flagged for a closer look

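The 4 results below were singled out because the same contrast had different effects in different settings by an interaction test (edgeR's quasi-likelihood test, adjusted over all genes tested). For ENO2, the combined change with enzalutamide plus talazoparib departed from the sum of both drugs by -1.09 on the log2 scale (adjusted p = 3.29e-07), with all 3 combination libraries below the 3 enzalutamide libraries. For EZH2, abiraterone plus olaparib departed from the sum by 0.20 (adjusted p = 0.0146, and 0.0668 without DMSO replicate 3).

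The effect of olaparib on EZH2 was more negative at day 5 than at day 1, by -0.41 at 1 µM (adjusted p = 2.29e-11) and by -1.59 at 5 µM (adjusted p = 5.56e-29). At day 5 every library of either dose lay below every DMSO library. Their causes were not tested.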

How the results depend on the processing

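Of 522 log2 fold changes of ENO2, SYP and EZH2 under other settings, 507 kept direction and side of the threshold, 10 lost it, 5 gained it and none reversed, and of 486 with 1 library left out 452 kept them, 17 lost, 8 gained and 9 reversed. The causes were not tested.

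Of the 3 testable genes, requiring a log2 fold change of 1 or more in size left 1 called with enzalutamide, with 5 µM olaparib at day 5 and for the dose step at day 5. It left 0 with olaparib, with talazoparib, for enzalutamide against abiraterone, talazoparib against olaparib, either combination against abiraterone or enzalutamide alone, the abiraterone and olaparib interaction, 1 µM olaparib at either day, 5 µM at day 1, the dose step at day 1, the difference between days at 1 µM and DMSO between days. An adjusted p under 0.01 left 0 for the abiraterone and olaparib interaction, 1 µM at day 1 and the dose step at day 1. The enzalutamide and talazoparib interaction had 2 called with total counts, with at least 1 CPM in 3 libraries and with DESeq2. With total counts, 1 µM at day 1 had 0, the dose step at day 1 had 1 and the difference between days at 5 µM had 2. With no filter, 1 µM and the dose step at day 1 had 0, with only the groups compared 1 µM at day 1 had 0, and with DESeq2 the dose step at day 1 had 1. With the replicate number as a block the dose step at day 1 also had 1 (ENO2, adjusted p = 0.0509), and the block changed no other call of these genes.

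With 1 library left out, members called ranged from 1 to 3 for enzalutamide against abiraterone, 0 to 2 for the abiraterone and olaparib interaction, 1 to 2 for the enzalutamide and talazoparib interaction, 0 to 0 for 1 µM at day 1, 1 to 2 for 1 µM at day 5, 2 to 3 for 5 µM at day 5, 0 to 2 for the dose step at day 1, and 1 to 2 for the difference between days at either dose. The reversals were all in SYP differences that missed the threshold throughout, which ranged from -0.12 to 0.084 for talazoparib against olaparib, -0.24 to 0.15 for abiraterone plus olaparib against abiraterone, -0.035 to 0.11 for 5 µM at day 1, -0.23 to 0.021 for the dose step at day 5 and -0.052 to 0.051 for DMSO between days.

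Counts of all genes called moved by over 1.5 times when a log2 fold change of 1 or more in size was required, from 9853 to 1959 with abiraterone, 9919 to 2059 with enzalutamide, 6638 to 502 with olaparib, 6300 to 463 with talazoparib, 11581 to 2692 and 11630 to 2593 with the abiraterone and enzalutamide combinations, 3694 to 229 for enzalutamide against abiraterone, 1557 to 17 for talazoparib against olaparib, 5436 to 355 and 6414 to 443 for the combinations against abiraterone and enzalutamide alone, and 2386 to 136 and 2346 to 138 for the interactions. In the time course they moved from 2928 to 118 and 8333 to 659 at day 1 (1 and 5 µM), 8566 to 738 and 12627 to 3038 at day 5, 5324 to 287 and 9909 to 1235 for the dose steps, 5510 to 433 and 10156 to 2243 for the differences between days, and 4536 to 147 for DMSO between days. An adjusted p under 0.01 left 2335, 623, 1250, 1202, 1651 and 2949 for enzalutamide against abiraterone, talazoparib against olaparib, the 2 interactions, 1 µM at day 1 and DMSO between days. The difference between the olaparib arms went from 352 to 672 with no filter, 230 without robust fitting and 657 with DESeq2, and to between 155 and 773 with 1 library left out. Leaving out 1 library gave 595 to 1821 for talazoparib against olaparib and 1932 to 2711 for 1 µM at day 1.

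Low counts limit CHGA, CHGB, SCG2, NCAM1, INSM1 and SOX2. None of them exceeded 11 counts in a library, and their fold changes between groups could not be resolved.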
